A study of Homo sapiens with 9 samples.

Results

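Acetylation of histone H3 at lysine 27 (H3K27ac) was mapped by ChIP-seq in RPMI-8402, a cell line from a human acute leukaemia of immature T cells (T-ALL), and the peaks described here are those that lay at the ends of protein-coding genes. A peak was a member when its summit, the position of strongest signal, lay within 1 kb of either end of a RefSeq protein-coding gene on chromosomes 1 to 22, X and Y. Of 9857 H3K27ac peaks on these chromosomes, 3765 met the rule (38.2%, 95% Wilson interval 37.2% to 39.2%), 3764 lay inside a gene but farther from its ends, and 2328 lay outside genes. The rule used position only, so the enrichment, width, neighbours, sequence and NKX2-1 antibody calls of the members were not used to choose them.

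The H3K27ac peaks came from 1 library, with no clone named, so nothing about the mark itself has a replicate or a test. The other 8 libraries were made with an antibody against the homeodomain transcription factor NKX2-1 (TTF1) in single clones of the same line: 4 clones that the design text calls NKX2-1 knockouts (KO), namely C12, C15, S04 and S36, and 4 wild-type (WT) clones with the names WT10, WT13, WT28 and WT30. Each clone gave 1 library, and nothing in the labels names separate cultures, so the p-values below measure the spread between these libraries, part of which may be technical. The H3K27ac library's genotype field reads NKX2-1, as in the KO clones and not in the WT clones, so the map may come from knockout or from unedited cells, which the labels do not settle. All libraries come from 1 cell line grown without a stated treatment. The deposited peak lists carry no read counts, so depth is unknown, a site without a peak was a site not called, and NKX2-1 itself could not be checked in the clones.

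H3K27ac is placed by the acetyltransferases p300 and CBP on nucleosomes next to active promoters and enhancers, and is low at silent genes. At an active promoter the site where RNA polymerase II starts is usually free of nucleosomes, and the acetylated nucleosomes flank it. Many promoters of broadly used genes lie in CpG islands, stretches rich in the dinucleotide CpG, whereas many tissue-restricted genes start in CpG-poor DNA. In T-ALL, NKX2-1 is one of several transcription factor genes that rearrangements switch on ectopically; its usual sites of action are lung, thyroid and forebrain.

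Promoter windows of 10 members are printed here because the results below turn on their CpG content, on motif matches and on NKX2-1 antibody calls. Each window runs from 250 bases before to 50 bases after the RefSeq start (GRCh38.p14), is written 5′ to 3′ on the gene's strand, and has matches to the 10 searched motifs in capitals. The motifs, searched on both strands and none containing another, were the TATA box TATAAA, the CCAAT box CCAAT, the GC box GGGCGG, the ETS core CCGGAAG, the NRF1 core GCGCATGC, the cAMP response element TGACGTCA, the E-box CACGTG, the YY1 core AAGATGGCG, the RUNX motif TGTGGTT and an NKX2-1 type core CACTTGA.

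The first 5 windows lie whole inside 5 of the most enriched gene-end peaks. They are those of NRROS at chr3:196639444-196639743 on the plus strand, MZB1 at chr5:139389864-139390163 on the minus strand, MKRN3 at chr15:23565424-23565723 on the plus strand, GIMAP5 at chr7:150737168-150737467 on the plus strand and DDX39B at chr6:31541954-31542253 on the minus strand.
NRROS: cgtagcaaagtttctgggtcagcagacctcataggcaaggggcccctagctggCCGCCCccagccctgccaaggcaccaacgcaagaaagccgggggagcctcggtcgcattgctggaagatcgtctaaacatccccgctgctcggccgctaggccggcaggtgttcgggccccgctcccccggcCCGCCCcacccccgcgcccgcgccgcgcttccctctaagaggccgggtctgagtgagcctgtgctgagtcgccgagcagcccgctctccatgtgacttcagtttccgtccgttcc
MZB1: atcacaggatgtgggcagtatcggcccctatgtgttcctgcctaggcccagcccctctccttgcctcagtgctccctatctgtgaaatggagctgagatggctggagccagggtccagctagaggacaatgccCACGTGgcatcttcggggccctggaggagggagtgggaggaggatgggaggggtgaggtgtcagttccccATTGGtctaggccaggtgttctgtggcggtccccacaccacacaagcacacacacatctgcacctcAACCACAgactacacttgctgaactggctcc
MKRN3: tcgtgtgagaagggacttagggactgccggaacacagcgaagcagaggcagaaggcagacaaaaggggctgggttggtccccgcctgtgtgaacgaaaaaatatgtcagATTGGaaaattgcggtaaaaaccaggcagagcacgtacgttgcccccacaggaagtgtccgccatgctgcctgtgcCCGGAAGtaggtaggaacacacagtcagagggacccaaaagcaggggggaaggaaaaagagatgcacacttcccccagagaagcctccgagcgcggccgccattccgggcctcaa
GIMAP5: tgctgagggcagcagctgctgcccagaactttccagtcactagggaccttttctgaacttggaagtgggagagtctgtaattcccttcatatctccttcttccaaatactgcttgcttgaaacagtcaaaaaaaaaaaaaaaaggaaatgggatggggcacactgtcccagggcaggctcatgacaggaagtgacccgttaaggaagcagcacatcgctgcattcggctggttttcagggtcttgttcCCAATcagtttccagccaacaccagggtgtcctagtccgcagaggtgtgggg
DDX39B: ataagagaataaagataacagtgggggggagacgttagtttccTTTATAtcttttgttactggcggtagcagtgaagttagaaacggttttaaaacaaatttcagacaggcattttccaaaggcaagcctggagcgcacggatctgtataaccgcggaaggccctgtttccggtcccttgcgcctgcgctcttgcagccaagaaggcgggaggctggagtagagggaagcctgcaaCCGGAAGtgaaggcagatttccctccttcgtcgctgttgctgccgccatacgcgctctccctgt
NRROS and DDX39B started in CpG-rich windows, with observed to expected CpG ratios of 0.793 and 0.847. MZB1 and GIMAP5 started in CpG-poor windows, with ratios of 0.15 and 0.211.

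The next 3 windows belong to members that an NKX2-1 antibody library called: TRIM41 at chr5:181223031-181223330, LST1 at chr6:31586027-31586326 and RPS19 at chr19:41860005-41860304, all on the plus strand.
TRIM41: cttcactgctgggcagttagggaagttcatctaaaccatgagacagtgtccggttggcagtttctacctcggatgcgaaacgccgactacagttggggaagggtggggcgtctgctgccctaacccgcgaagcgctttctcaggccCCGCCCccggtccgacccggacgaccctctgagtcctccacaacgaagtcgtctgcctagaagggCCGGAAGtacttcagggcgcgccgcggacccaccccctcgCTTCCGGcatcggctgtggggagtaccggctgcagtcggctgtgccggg
LST1: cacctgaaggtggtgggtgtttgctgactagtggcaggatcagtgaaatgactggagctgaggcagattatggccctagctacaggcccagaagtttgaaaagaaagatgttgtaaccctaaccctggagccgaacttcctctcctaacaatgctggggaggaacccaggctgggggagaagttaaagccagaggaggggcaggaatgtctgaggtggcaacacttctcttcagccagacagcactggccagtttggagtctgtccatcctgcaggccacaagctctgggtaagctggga
RPS19: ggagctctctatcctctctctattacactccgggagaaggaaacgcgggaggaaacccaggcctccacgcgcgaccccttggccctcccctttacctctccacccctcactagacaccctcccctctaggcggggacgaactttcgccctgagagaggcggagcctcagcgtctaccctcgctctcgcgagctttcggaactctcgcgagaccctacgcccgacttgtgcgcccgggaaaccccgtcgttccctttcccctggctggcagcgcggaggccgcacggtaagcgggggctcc
No NKX2-1 type core was found in these windows, and LST1 held 1 CpG in 300 bases. The windows of LST1 and RPS19 lie inside their H3K27ac peaks. That of TRIM41 lies outside its called peak, at chr5:181223646-181224368, so its motif matches do not describe the called site.

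The last pair are the 2 most enriched members with a YY1 core in the window, PFDN4 at chr20:54207837-54208136 and TM9SF4 at chr20:32109464-32109763, both on the plus strand and chosen after their values were seen.
PFDN4: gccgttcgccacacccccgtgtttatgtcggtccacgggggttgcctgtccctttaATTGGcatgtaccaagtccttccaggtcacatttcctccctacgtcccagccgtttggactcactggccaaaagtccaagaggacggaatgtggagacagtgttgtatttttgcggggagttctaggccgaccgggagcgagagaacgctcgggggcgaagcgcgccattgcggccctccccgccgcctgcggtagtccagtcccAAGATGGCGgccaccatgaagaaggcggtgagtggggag
TM9SF4: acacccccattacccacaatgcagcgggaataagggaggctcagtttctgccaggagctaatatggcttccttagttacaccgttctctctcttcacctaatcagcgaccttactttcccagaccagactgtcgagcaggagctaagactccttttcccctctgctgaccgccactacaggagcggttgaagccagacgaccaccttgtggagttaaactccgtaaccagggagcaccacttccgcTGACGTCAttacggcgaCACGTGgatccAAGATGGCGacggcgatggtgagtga
In both, the YY1 core lies in the 50 bases after the start, and TM9SF4 carries a cAMP response element and an E-box beside it.

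The most enriched gene-end peaks marked genes of quite different kinds. Enrichment is the authors' deposited ratio at the summit, the fold over the background their peak caller used, and each value comes from the single library. A peak with a ratio of 23.5 lay by the starts of SLC4A8, a bicarbonate transporter, and GALNT6, a glycosyltransferase, and at 9182 bp was the widest gene-end peak.

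Several of the strongest members were genes of lymphoid or blood cells. NRROS, which controls activation of the cytokine TGF-beta in myeloid cells, had a ratio of 22.9 over 4630 bp. MZB1, an endoplasmic reticulum protein of antibody-secreting cells, had 21.3 over 5257 bp. VAV3, a guanine nucleotide exchange factor in antigen receptor signalling, had 19.1 over 4180 bp, and GIMAP5, a GTPase needed for T-cell survival, had 17.7 over 2229 bp. Those 4 peaks were all wider than 2 kb.

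Genes used in most cells were among the strongest too. PTMA, which encodes the chromatin protein prothymosin alpha, had a ratio of 20.6, DDX39B, an RNA helicase of splicing and mRNA export, 17.7, and TRA2B, a splicing regulator, 17.2. The peak with a ratio of 18.9 had its summit 93 bp downstream of the start of SNX8, a sorting nexin. An end of EIF3B, a translation initiation factor gene, lay within 1 kb of the same summit. REPIN1, a zinc-finger gene, had a ratio of 17.7, equal to that of GIMAP5, and UNK, another zinc-finger gene, had 18.3. The imprinted gene MKRN3 had 21.1, and the meiotic cohesin gene SMC1B, which shares its promoter region with RIBC2, had 18.6. H2AC19, a replication-dependent histone gene, had 19.4, with the summit 119 bp from its 3′ end. The strongest members named here thus included restricted, ubiquitous, imprinted and histone genes.

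At the rule's boundary, summits at SLFN11 and SUCO lay 999 bp from a gene end and that at NUDT8 998 bp, with ratios of 7.96, 4.97 and 4.71. Just outside were FBXO2 at 1001 bp with a ratio of 5.09, LOC124904542 at 1002 bp with 10.6 and RUFY3 at 1003 bp with 7.41.

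Gene-end peaks were somewhat more enriched and wider in the middle of their distribution than the other peaks, but held fewer of the very wide peaks. The median ratio was 6.43 at gene ends (quartiles 5.66 and 7.90), 5.94 inside genes and 6.19 outside genes. Median widths were 424 bp, 364 bp and 388 bp in the same order. Ratios of 10 or more were reached by 362 gene-end peaks (9.615%), 5.66% of peaks inside genes and 9.28% of those outside. Widths over 2 kb were reached by 61 gene-end peaks (1.62%), against 2.84% and 4.04%.

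**Figure D1:**
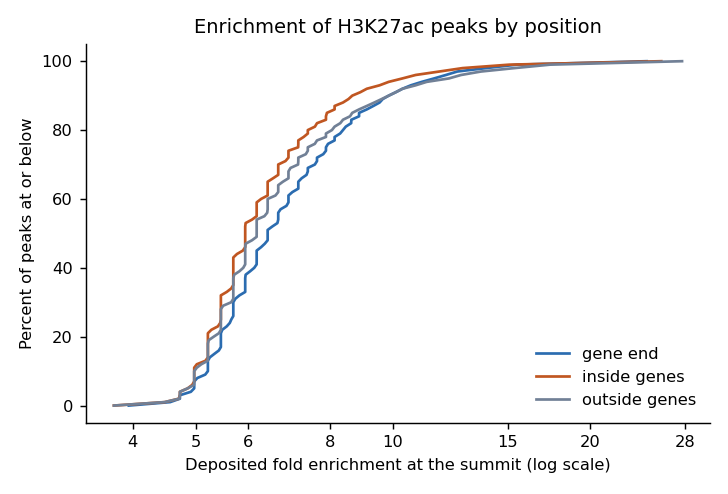
Cumulative distribution of the deposited fold enrichment (x axis, log scale; y axis, percent of peaks at or below) for H3K27ac peaks at gene ends, inside genes and outside genes in the single library. The gene-end line lies to the right of the others through the middle (medians 6.43, 5.94 and 6.19), and the outside-genes line reaches the highest value, 27.7.

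The share of peaks that lay at gene ends therefore changed along the scale and was not highest at its top. It was 31.9% among peaks with a ratio under 6 and 45.8% of the 791 peaks with 10 or more, but 32.1% (interval 24.7% to 40.5%) of the 131 peaks with 15 or more. Among the 262 peaks wider than 2 kb it was 23.3%. Ratio and width went together within the class, with a Spearman correlation of 0.718 over its 3765 peaks, which share 1 library. The ratio is coarse: 539 distinct values covered all members, and 194 peaks had the value 5.70.

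Gene-end peaks stood alone more often than the others. The median distance to the nearest other H3K27ac peak was 16790 bp for gene-end peaks, 464 bp for peaks inside genes and 479.5 bp for peaks outside genes. A neighbour within 5 kb was present for 43.4% of gene-end peaks, 75.5% of those inside genes and 74.8% of those outside. Read the other way, 58.5% of the 3642 peaks with no neighbour within 5 kb lay at a gene end, against 26.3% of the 6215 with one.

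Where the nearest gene had a strand in the reference tables, almost all members sat at its start. The nearest end was a 5′ end for 2954 peaks (78.5%) and a 3′ end for 188 (4.99%), and no strand was given for 623 (16.5%). Summits at 5′ ends were mostly inside the transcribed part. Of the 2954, 2326 (78.7%) lay downstream of the start, the median position was 296 bp downstream (quartiles 108 bp and 476.8 bp), and 1550 (52.5%) lay 100 to 500 bp downstream. The upstream side held fewer summits, 341 (11.5%) at 100 to 500 bp upstream, and 154 (5.21%) lay within 100 bp of the start on either side. Per 100 bp, the 2 bins next to the start held 60 and 94 summits, close to the 64 to 106 of the upstream bins out to 500 bp, while the count was 290 to 487 in each bin from 100 to 500 bp downstream.

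**Figure D2:**
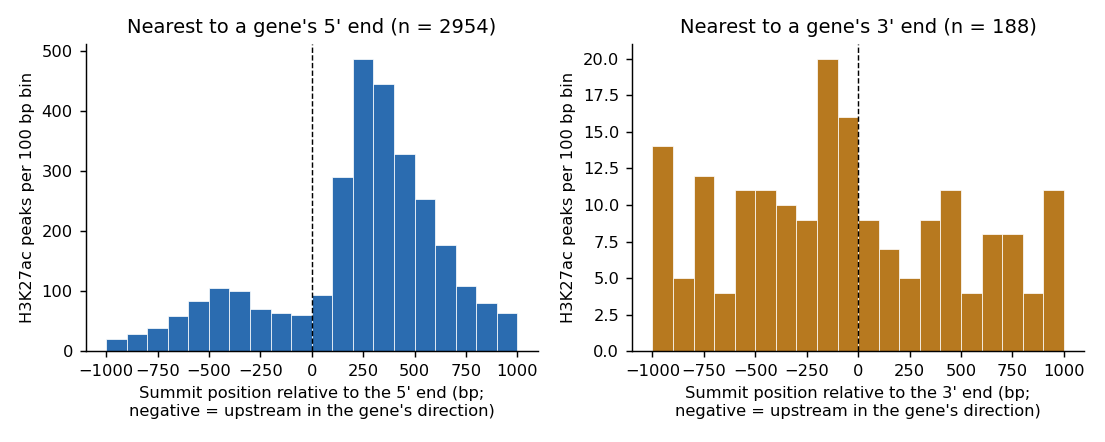
Number of gene-end H3K27ac summits per 100 bp (y axis) by position relative to the nearest 5′ end (left, 2954 peaks) or 3′ end (right, 188 peaks), in bp along the gene's direction. Summits at 5′ ends are most frequent 100 to 500 bp downstream, with 60 to 106 per bin from 500 bp upstream to 100 bp downstream, and those at 3′ ends spread over the window with a median of -104.5 bp.

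Separate summits on both sides of a start were uncommon. A peak that spans the start counts here on the side of its summit only, and each summit counts for its nearest gene only. Among 2549 genes with a nearest 5′ summit, 1935 (75.9%) had summits on the downstream side only, 341 (13.4%) on the upstream side only and 273 (10.7%) on both. Upstream and downstream summits had like ratios, with medians of 6.32 and 6.43. The peaks that spanned the start differed from the rest: 663 of the 2954 (22.4%) covered it, with a median ratio of 7.90 and 24.6% at 10 or more, against 6.19 and 4.58% for the 2291 that did not. Wider peaks are both more likely to cover a start and higher in ratio, so these values are not independent of width, with median widths of 752 bp and 373 bp.

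The 188 members at 3′ ends were a different set. Their median ratio was 6.68, 31 (16.5%) had 10 or more, and 77.7% had another peak within 5 kb, against 40.2% of those at 5′ ends. A promoter start of some gene in the RefSeq promoter table lay within 1 kb for 77 of them (41.0%). H2AC19 led this set. Replication-dependent histone genes, which are short and clustered, were nearest to 72 gene-end peaks, of which 22 lay at a 5′ end. A strand was given for 64 of these 69 genes, so histone peaks form part of the 3′ set. Their part in its ratios and neighbours was not tested. GLP1R, the receptor of glucagon-like peptide, had a ratio of 12.5 at chr6:39090047-39091468, with the summit 794 bp from its 3′ end inside the gene.

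Counted by gene, 3656 of 20037 protein-coding genes (18.2%) had an H3K27ac summit within 1 kb of an end. Most had 1 peak (2867 genes), 701 had 2 and 88 had 3 or more. Of 15843 genes with a strand, 2948 (18.6%) had a summit at the 5′ end and 227 (1.43%) at the 3′ end. BCL2L1, which encodes the survival protein BCL-XL, had 5 gene-end peaks, 4 of them at its 3′ end, with a best ratio of 10.4. TMC8, a channel-like gene expressed in lymphocytes, also had 5, and IGLL1, the lambda 5 surrogate light chain gene of early B cells, had 4 covering 3182 bp.

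Ends of 2 or more genes lay within 1 kb of the same summit for 742 members (19.7%), up to 4 genes for 1 summit, so a peak cannot always be assigned to 1 gene. Divergent gene pairs, whose starts face away from each other over a short distance, were often marked. A 5′ summit was found at 579 of 1605 genes in such pairs (36.1%, interval 33.8% to 38.5%), against 2369 of 14238 other genes (16.6%, interval 16.0% to 17.3%). Of 814 pairs, both starts lay near a peak in 288, a single start in 13 and neither in 513. A summit within 1 kb of one start of a close pair is near the other by construction, which these shares include. Median ratios differed little, 6.64 in pairs and 6.68 elsewhere. SMC1B and RIBC2, with starts 94 bp apart, led the pairs with 18.6, and HNRNPDL, an RNA-binding protein gene, and ENOPH1, an enzyme of methionine salvage, had 16.0 with starts 128 bp apart.

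Gene lists drawn by function ranged from nearly all members marked to none, set here beside the 18.2% of all genes. Intervals in this account cover counting over genes only. Of 31 lists, 18 lay above the all-gene share, 7 lay above 50%, and 6 had no marked gene. The median of the best ratio per marked gene was 6.68 over all genes.

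**Figure D3:**
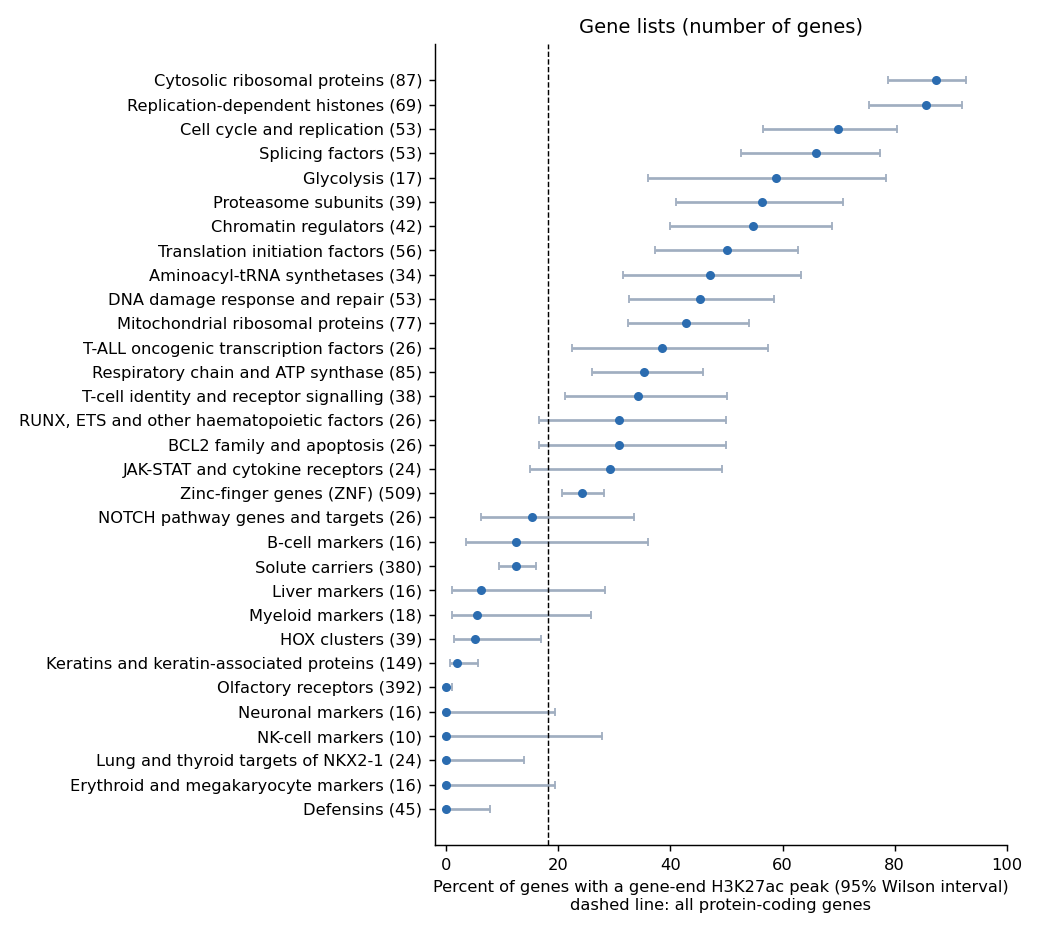
Percent of genes with a gene-end H3K27ac peak (x axis, with 95% Wilson intervals) in each of 31 gene lists (y axis, number of genes in brackets), with a dashed line at the 18.2% of all protein-coding genes. Ribosomal protein and histone lists lie above 80%, and erythroid, NK-cell, neuronal, lung and thyroid, olfactory receptor and defensin lists lie at 0.

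Among the genes of protein synthesis, the cytosolic and mitochondrial ribosomes differed. Cytosolic ribosomal proteins, the structural parts of the ribosome, had a gene-end peak at 76 of 87 genes (87.4%), with a median best ratio of 8.26. The strongest were RPL27A with 15.5, RPL7A with 13.8, RPS19 with 11.7 and RPL36 with 11.6. Among the 11 without a peak were RPL3 and RPLP1, and also RPL3L and RPL10L, paralogs restricted to muscle and testis. Mitochondrial ribosomal proteins were marked at 33 of 77 genes (42.9%), and weakly, with a median of 6.13. MRPL13, with 9.61, was the highest of these, so none reached a ratio of 10.

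Other parts of the synthesis machinery lay between. Translation initiation factors and related EIF-named genes were marked at 28 of 56 (50%), led by EIF3B with 18.9, EIF2S2 with 12.05 and EIF4E, the cap-binding protein, with 11.8. Aminoacyl-tRNA synthetases, which charge tRNAs, were marked at 16 of 34 (47.1%), with YARS1 highest at 9.88. Splicing factors were marked at 35 of 53 (66.0%), and 4 SR proteins, which bind exonic enhancers, led them: SRSF6 with 16.4, SRSF1 and SRSF2 with 15.5 each and SRSF4 with 15.4. SF3B1, a core part of the U2 particle, had 9.36.

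Replication-dependent histone genes had the highest median best ratio of the 31 lists. A gene-end peak was found at 59 of 69 (85.5%), with a median best ratio of 13.2, and 42 of the 59 had 10 or more. H2AC20 and H2BC21, a divergent pair, shared a peak with a ratio of 16.5, and H2BC12 and H2AC12 one with 16.3. These genes are short, nearly identical in sequence and packed in clusters, so neighbours share peaks, reads may map to more than 1 copy, and the counts are uncertain for that reason. The testis-restricted H2AC1, H2BC1 and H1-6 were among the 10 without a peak.

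Genes of energy metabolism and protein breakdown were marked less completely. Glycolytic enzymes were marked at 10 of 17 (58.8%), with GAPDH highest at 11.3 and LDHA, lactate dehydrogenase, at 7.48. Proteasome subunits were marked at 22 of 39 (56.4%), with PSMD11 at 9.12. Respiratory chain and ATP synthase subunits were marked at 30 of 85 (35.3%), led by UQCRH with 14.6, NDUFB4 with 12.5 and ATP5PF with 11.8. The tissue-restricted subunits COX6A2, COX7B2 and COX8C had none.

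Genes of proliferation were marked at 37 of 53 (69.8%), with a median best ratio of 7.59. MCM7 and MCM2, subunits of the replicative helicase, had 14.0 and 12.1, the E2F family member E2F3 had 12.2 and the proliferation marker MKI67 had 11.3. The D-type cyclins CCND1, CCND2 and CCND3 and the kinase CDK6 had no gene-end peak. DNA damage response and repair genes were marked at 24 of 53 (45.3%), with RNF168, a ubiquitin ligase at breaks, at 14.98, WEE1, a kinase that holds cells in G2, at 12.3 and XRCC5, the Ku80 subunit, at 10.3. PARP1 and BRCA2 had none.

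Chromatin regulators were marked at 23 of 42 (54.8%), with a median of 8.48. CTCF, the insulator protein, had 16.2, the cohesin subunits SMC1A and RAD21 had 12.7 and 12.05, and ASXL1, a Polycomb-associated protein, had 12.05. EP300, which encodes p300 itself, had 8.79, and its paralog CREBBP had no gene-end peak. BCL2 family and apoptosis genes were marked at 8 of 26 (30.8%). BCL2 had 11.3, BIRC5 (survivin) 10.5 and BCL2L1 10.4, while BAX, BAK1, BBC3 and BCL2L11, which promote cell death, had no gene-end peak.

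Markers of T cells were marked in part and those of other lineages hardly at all, which does not by itself establish the line's label. Of 11 defining T-cell markers, 5 had a gene-end peak: CD3E with 11.8, CD3D with 8.08, LCK with 7.72, and CD3G and CD247 with 6.92 each, 4 of them subunits of the T-cell receptor complex and LCK its kinase. CD2, CD5, CD7, PTCRA, TCF7 and BCL11B had none. TCF7 nevertheless had 11 H3K27ac peaks within 10 kb of the gene, up to a ratio of 15.7, and BCL11B had 5, so a missing gene-end peak did not mean a locus without the mark. None of the 6 B-cell, 6 myeloid, 4 erythroid, 4 NK-cell and 4 lung and thyroid defining markers had a gene-end peak.

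Over the full list, T-cell identity and receptor signalling genes were marked at 13 of 38 (34.2%, interval 21.2% to 50.1%). ZAP70, the kinase that binds phosphorylated receptor chains, had 11.3, the chemokine receptor CXCR4 9.36, the adaptor LCP2 9.12 and the adaptor LAT 8.39. CD4, CD8A, RAG1, RAG2, GATA3 and IL7R had none, and 7 of the 25 without a gene-end peak had a peak within 10 kb. B-cell markers were marked at 2 of 16, IGLL1 with 10.1 and VPREB1 with 6.68, which encode the 2 parts of the surrogate light chain of early B cells. Myeloid markers were marked at 1 of 18, the granule protease CTSG with 8.14, and liver markers at 1 of 16, transferrin (TF) with 12.5. A peak within 10 kb but none at a gene end was found for 4 myeloid, 2 B-cell and 2 erythroid and megakaryocyte markers, and for no NK-cell marker. The share of all genes with such a peak is not given here, so the counts within 10 kb, those of T-cell genes included, have no base to be set against. HOXB4 and HOXB2, with 7.41 and 6.68, were the marked members among 39 HOX genes.

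T-ALL oncogenic transcription factors were marked at 10 of 26 (38.5%, interval 22.4% to 57.5%). LYL1, a basic helix-loop-helix factor, had 3 gene-end peaks covering 4861 bp, with a best ratio of 12.2. MYB, a regulator of blood progenitors, had 11.1, the LIM-only gene LMO1 9.36, its helix-loop-helix partner TAL1 7.16, and STAG2, a cohesin subunit on this list, 9.61. NKX2-1 had a single gene-end peak upstream of its start with a ratio of 4.72 and a width of 305 bp, below the median of the class. The −log10 q of that peak was 2.46, near the smallest value of the class, 2.10. Whether the cells of the H3K27ac library carried an edited NKX2-1 gene is not known. LMO2, TLX1, TLX3, HOXA9, HOXA10, MEF2C and HHEX had none. NKX2-1, TAL1, LMO1, LYL1 and MYB thus had a gene-end peak, NKX2-1 a weak one, while LMO2 and the listed TLX and HOXA factors were not called there.

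Signalling lists lay nearer the all-gene share. NOTCH pathway genes were marked at 4 of 26 (15.4%): HES4 with 11.6, NOTCH1 with 3 peaks and a best ratio of 6.92, SHQ1 with 6.89 and MAML1 with 4.97. The target genes HES1, DTX1 and NRARP had no gene-end peak. JAK-STAT genes were marked at 7 of 24 (29.2%), with STAT3 at 8.87 and STAT5A at 7.41. RUNX, ETS and other haematopoietic factors were marked at 8 of 26 (30.8%), with the ETS factors GABPA at 11.8 (a peak it shares with the oppositely oriented ATP5PF), ETS2 at 9.61 and ETV6 at 8.63, while RUNX1, RUNX3, ETS1 and IKZF1 had none. Of the 18 haematopoietic factors without a gene-end peak, 10 had a peak within 10 kb. That count too has no share over all genes beside it, so it is not read as a trait of these factors.

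Large families divided the same way. Zinc-finger genes named ZNF were marked at 123 of 509 (24.2%, interval 20.6% to 28.1%) with a median of 6.33, and 3 of them reached 10: ZNF335 with 16.9, ZNF428 with 11.8 and ZNF7 with 11.1. Solute carriers were marked at 47 of 380 (12.4%, interval 9.43% to 16.1%). Keratins and keratin-associated proteins were marked at 3 of 149 (2.01%). No olfactory receptor was marked (0 of 392, an upper limit of 0.765%), nor any of 45 defensins (limit 6.67%), 24 lung and thyroid targets of NKX2-1 (limit 12.5%), 16 neuronal genes or 16 erythroid and megakaryocyte genes (limit 18.8% each), or 10 NK-cell genes (limit 30%).

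The promoter sequence of marked genes differed from that of unmarked genes mainly in CpG content. Windows at the outermost RefSeq start were given for 13819 genes, among them 2683 of the 2948 with a 5′ summit (91.0%). The CpG ratio, observed CpG over that expected from base composition, had a median of 0.891 in marked and 0.721 in unmarked windows. Ratios of 0.6 or more were found in 89.7% of marked and 60.8% of unmarked windows, and ratios under 0.4 in 4.92% and 29.4%. From the lowest to the highest CpG bin the share of windows with a 5′ peak went from 2.15% (interval 1.57% to 2.96%) to 37.5% (interval 35.2% to 39.8%), against 19.4% of all windows.

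CpG content went with the presence of a peak and hardly with its strength. Marked windows with ratios above and at or below the median enrichment had median CpG ratios of 0.896 and 0.884. The 132 marked windows with a CpG ratio under 0.4 had the same median enrichment as all marked windows, 6.68. Among them were MZB1 and GIMAP5, printed above, and LST1, a leukocyte gene with a CpG ratio of 0.0471 and an enrichment of 14.7. TLR9, a receptor for unmethylated DNA, with 14.2, and ATF5, a stress-response factor, with 12.8, were also in this group.

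**Figure D4:**
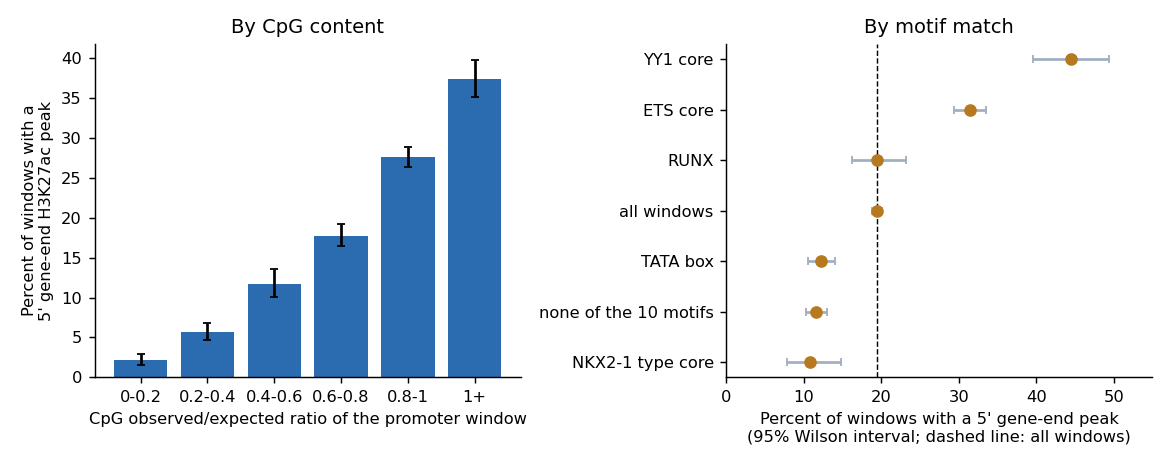
Percent of RefSeq promoter windows with a 5′ gene-end H3K27ac peak (with 95% Wilson intervals) by CpG observed to expected ratio (left, bars) and by presence of a motif match (right, points), with a dashed line for all windows at 19.4%. The share goes from 2.15% in the lowest to 37.5% in the highest CpG bin, and windows with a YY1 core lie highest on the right at 44.4%.

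Motif matches were counted as letters in the window and show no binding. Windows with a YY1 core were the most often marked, 176 of 396 (44.4%, interval 39.6% to 49.4%), and those with an ETS core next, 634 of 2018 (31.4%, interval 29.4% to 33.5%). The YY1 core was present in 6.56% of marked and 1.98% of unmarked windows, out of 2.87% of all. Among windows with a CpG ratio of 0.6 or more the values were 7.19% and 2.999%. For the ETS core, in 14.6% of all windows, they were 23.6% and 12.4% overall and 25.2% and 18.3% within CpG-rich windows. PFDN4 and TM9SF4 above show the YY1 core, and MKRN3, DDX39B and TRIM41 the ETS core.

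The YY1 core sat at a like position in both sets. In marked windows 129 of 181 matches (71.3%) began in the 50 bases after the start, and in unmarked windows 149 of 224 (66.5%), with 74.0% and 79.5% on the gene's own strand. ETS cores showed no such placement, with 16.8% and 16.7% of matches in those 50 of 300 bases. Among the lists, aminoacyl-tRNA synthetase windows held an ETS core in 15 of 25 and a YY1 core in 4, and mitochondrial ribosomal protein windows in 29 and 12 of 64. None of 63 histone windows held a YY1 core, and 3 held an ETS core.

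The GC box and the TATA box changed their order within CpG-rich windows, and several other differences shrank there. The GC box was in 58.5% of all windows, in 69.6% of marked and 55.85% of unmarked ones, and within CpG-rich windows in 73.4% and 78.1%. The TATA box was in 10.0% of all windows, in 6.30% of marked and 10.9% of unmarked ones, and within CpG-rich windows in 5.78% and 5.05%, with overlapping intervals. The RUNX motif was in 3.54% and 3.53%, with 3.53% of all windows, and the CCAAT box in 37.8% and 37.0%, with 37.15% (interval 36.3% to 38.0%) of all. Both gaps were wider within CpG-rich windows, 2.91% and 2.16% for RUNX and 37.7% and 35.6% for the CCAAT box, with overlapping intervals. NRF1 cores were in 6.04% and 4.08% (4.46% of all), cAMP response elements in 4.21% and 2.33% (2.70% of all) and E-boxes in 11.1% and 8.42% (8.95% of all). Within CpG-rich windows these became 6.61% and 6.09% for NRF1, 11.55% and 10.65% for the E-box and 4.53% and 3.43% for the cAMP response element. The intervals overlapped for each of these motifs. The NKX2-1 type core was in 1.23% of marked and 2.44% of unmarked windows, out of 2.21% of all. Within CpG-rich windows its shares were 1.04% and 1.58%, with overlapping intervals. The windows with that core were marked in 33 of 305 cases (10.8%, interval 7.81% to 14.8%).

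Calls with the NKX2-1 antibody asked whether the factor's peaks fall on gene-end H3K27ac and whether this differs between WT and KO clones. They seldom did. WT10 overlapped 4 of the 3765 gene-end peaks, WT28 overlapped 1, and WT13 and WT30 overlapped none. Among KO clones, S36 overlapped 10, C12 overlapped 1, and C15 and S04 overlapped none. The groups overlapped, and the highest count came from a knockout clone. A count of 0 allows a share of up to 0.0797%, which covers counting error only.

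WT and KO clones did not differ beyond the spread between libraries. The share of gene-end peaks overlapped was 0.0332% ± 0.0503 in WT and 0.0730% ± 0.129 in KO clones (SD, n = 4 each), a difference of -0.0398 percentage points (two-sided exact permutation test, p = 0.886, Benjamini-Hochberg adjusted over 3 tests p = 0.886). Seen from the libraries, which held 742 to 1144 peaks in WT and 810 to 934 in KO clones, 0.116% ± 0.165 of WT and 0.325% ± 0.571 of KO peaks lay on a gene-end H3K27ac peak (SD, n = 4 each), a difference of -0.209 points (two-sided exact permutation test, p = 0.714, adjusted p = 0.886). Over 70 assignments the smallest possible p is 0.0286. Without S36 both differences changed sign, to 0.0243 and 0.0748 points.

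Gene-end peaks were called less often than the other H3K27ac peaks in every one of the 8 libraries. The other 6092 peaks were overlapped 71 times in WT10, 22 in WT28, 18 in WT30 and 2 in WT13, and 38 times in S36, 10 in C12, 5 in C15 and 1 in S04. The gene-end share minus the other share averaged -0.29 percentage points ± 0.339 (SD, n = 8) and was negative in 8 of 8 libraries (two-sided exact sign-flip permutation test, p = 0.00781, the smallest that 256 sign patterns can give, adjusted over 3 tests p = 0.0234). C15, S04, WT13 and WT30 called no gene-end peak, and S04 and WT13 take their sign from 1 and 2 calls on other peaks, so part of the p rests on very few calls. The mean was -0.430 in WT and -0.149 in KO clones. The size rests on single libraries and on settings, from -0.180 without WT10 to -1.55 among H3K27ac peaks with a −log10 q of 10 or more and -0.11 with only NKX2-1 library peaks of that strength, and was negative in each. All 8 differences use the same H3K27ac peaks, and the part played by width and by the KO libraries' calls was not tested.

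**Figure D5:**
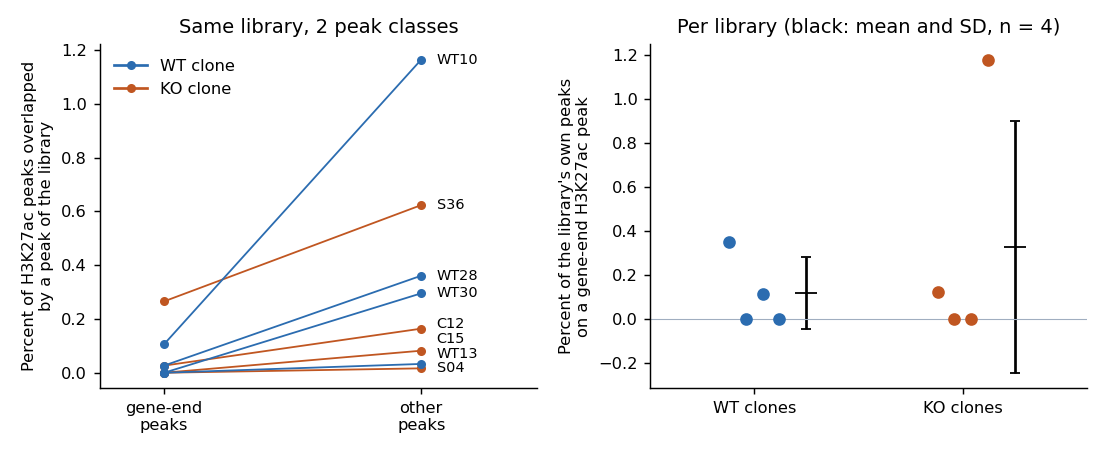
Left, percent of H3K27ac peaks overlapped by a peak of each NKX2-1 antibody library (y axis), for gene-end and other peaks joined by a line per library (WT and KO clones in different colours); right, percent of each library's own peaks that lie on a gene-end H3K27ac peak, with mean and SD per group (n = 4). Every line goes up to the right, and S36, at 1.18%, stands above all other libraries on the right.

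Counted over the 8 libraries together, 13 gene-end peaks had at least 1 call (0.345%), against 1.15% of all H3K27ac peaks and 1.64% of the other peaks. Of these 13, 11 were called in 1 library, and their median ratio of 6.68 was close to the 6.43 of the 3752 without a call. TRIM41, a ubiquitin ligase gene whose promoter window is printed above, was called in 3 libraries, C12, S36 and WT28, of which 2 are knockout clones. MTMR9, a phosphatase-like gene, was called in S36 and WT10.

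The other called members were seen in 1 library each. S36 alone called IDNK, a gluconate kinase gene with an H3K27ac ratio of 16.9, RPS19 with 11.7, the GDP-dissociation inhibitor gene ARHGDIB with 7.41, and ATP2B4, USP15, TMBIM4, CYBC1 and SNRNP200 with 5.94 or less. WT10 alone called LST1 with 14.7, the calmodulin gene CALM3 with 9.36 and C1orf174 with 6.28. Without S36, 5 called members were left, and without S36 and WT10, TRIM41 alone.

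The authors' derived lists touched few members. A region of their WT-only list overlapped 3 gene-end peaks, LST1, CALM3 and C1orf174, the 3 that WT10 alone called, against 0.629% of all H3K27ac peaks. Their combined peak list overlapped 1, the peak at the 3′ end of GLP1R, which no single library called, against 0.325% of all H3K27ac peaks.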

How the data were processed

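ChIP-seq peaks of 9 samples were analysed as peak lists. Per the submitters' processing notes, Bowtie2 and MACS2 were among the tools, with FastQC, SAMtools and deepTools, and the build was hg38. Tool versions, settings and the background sample for calling are not given in the sources used here. In the deposited lists the authors give per peak a score (not used), a ratio (fold enrichment at the summit), −log10 p (not used) and −log10 q values, and the summit offset (other numbers in the lists are positions). Each H3K27ac summit was assigned to the nearest end of a RefSeq protein-coding gene, within a limit of 1 kb; the smallest deposited −log10 q there was 2.10. Coordinates are 1-based. The RefSeq gene coordinates used here give 1 start and 1 end per gene, so internal promoters are not gene ends, and strand was known for 79.1% of genes.

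Overlap meant 1 bp or more. Promoter windows and CpG and motif matches came from the RefSeq table (GRCh38.p14). Shares carry 95% Wilson intervals, and a 0 is given the limit of 3 counts. Tests over libraries were exact permutations, adjusted by Benjamini-Hochberg over 3. Scripts used Python 3.11.15, numpy 2.4.6, pandas 2.3.3 and scipy 1.17.1 and were tested on simulated intervals. Named genes were, by rule, the 15 most enriched and 5 widest peaks, up to 4 per list (with list members lacking a peak), the 3 genes with most peaks, the 3 peaks on each side of the limit, and called peaks; EP300, LDHA, SF3B1, TAL1, NKX2-1, HNRNPDL, ENOPH1, TLR9, ATF5 and single further list members were named after their values were seen. A few genes that the rule names are not reported here. The members and lists were chosen with earlier results of these data known. Alternatives were a limit of 500 bp or 2 kb, stricter −log10 q, overlap of 50%, gene starts only, all genes, and leaving out libraries.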

Additional observations from a re-analysis of the deposited data

Results flagged for a closer look

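The S36 library stood apart from the other KO clones in both overlap measures. It overlapped 0.266% of gene-end H3K27ac peaks, where the other KO clones overlapped 0 or 0.0266%, and its gap to the nearest of them was 0.9 of the group's range. Of its own peaks, 1.18% lay on a gene-end H3K27ac peak, against at most 0.123% in C12, C15 and S04, a gap of 0.895 of the range. Both gaps exceed Dixon's critical value for 4 values at 95%, and the 2 measures count the same overlaps. Chance passes that value in about 1 in 20 groups where values are normally distributed. Here the overlapped gene-end peaks numbered 10 in S36, 1 in C12 and 0 in C15 and S04, so that rate may not hold. Other measures and the WT clones were screened by the same rule. S36 also had the most peaks of the KO clones, 934 against 810 to 842, whose part in this was not tested.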

How the results depend on the processing

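The share of H3K27ac peaks at gene ends moved with the definition: 26.1% within 500 bp, 44.2% within 2 kb, 30.0% with gene starts only, 46.4% with all genes of the reference table and 46.2% among peaks with −log10 q of 10 or more. At that stricter threshold 645 genes kept a gene-end peak and the median ratio was 10.6; the other settings gave 2645 to 5178 genes and a median of 6.43. Between 17 and 19 of 31 lists lay above the all-gene share, but not always the same ones: at the stricter threshold, where that share is 3.22%, mitochondrial ribosomal (2.60%), proteasome (2.56%), ZNF (1.18%) and JAK-STAT genes (0%) lay below it and B-cell and liver markers (6.25% each) and NOTCH genes (3.85%) above, and 23 lists left their interval. With libraries left out in turn, the WT minus KO difference ranged from -0.0642 to 0.0243 points over gene-end peaks and from -0.318 to 0.0748 over library peaks, changing sign without S36 only. The gene-end minus other difference ranged from -0.329 to -0.180, with an adjusted exact sign-flip p of 0.0469 each time. The count of gene-end peaks with a call, tried without libraries after seeing the data, ranged from 5 to 13 and was 1 without WT10 and S36. No paired analysis was possible because the clones' replicate numbers follow accession order and pair nothing. Unknown depth, a single H3K27ac library and ratios that rest on few distinct values limit every level given.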

Other observations

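Chromosomes differed in the share of genes with a gene-end peak. It was highest on chromosomes 3 (270 of 1066, 25.3%), 20 (134 of 537, 24.95%) and 17 (277 of 1169, 23.7%), and lowest, among the autosomes and X, on X (57 of 848, 6.72%) and 13 (24 of 338, 7.10%), with Wilson intervals of 22.81% to 28.02% on chromosome 3 and 5.22% to 8.61% on X. On chromosome 19, 55.5% of the 445 H3K27ac peaks lay at gene ends, against 22.4% of 210 on chromosome 21.

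A long non-coding RNA gene had an end within 1 kb of the summit of 778 gene-end peaks (20.7%), and of 6.96% of peaks inside and 11.9% of peaks outside protein-coding genes. Peaks outside the class were not all far from starts: 643 inside genes (17.1%) and 182 outside genes (7.82%) lay within 1 kb of a start in the RefSeq promoter table.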
